A study of Mus musculus with 8 samples.

Results

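The genes described here encode the partners through which an Argonaute protein silences an mRNA: the 3 GW182 proteins (Tnrc6a, Tnrc6b and Tnrc6c), the deadenylase subunits Cnot1, Cnot7, Pan2 and Pan3, the helicase Ddx6, the decapping enzyme Dcp2 and the exonuclease Xrn1. These 10 genes were chosen by symbol, and all 10 were found among the 55487 genes of the count and TPM tables. They were followed in LLC cells, a mouse Lewis lung carcinoma line grown in culture in DMEM with 10% FBS. Polyadenylated RNA from 4 libraries of wild-type cells and 4 libraries of Ago2 knock-out cells (ΔAgo2) was sequenced in paired-end reads on a NovaSeq instrument, and all 8 libraries carry the same batch label. The knock-out was made with lentiviral CRISPR-Cas9 and puromycin selection followed by single-cell cloning. Which clone gave the RNA is not given in the sources used here, so the genotype and the clone cannot be told apart. The labels call the 4 libraries of a group biological replicates without naming separate cultures, and the p-values measure the spread between these libraries.

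MicroRNAs guide Argonaute proteins to partly complementary sites in mRNAs. Argonaute does not remove the poly(A) tail itself. It binds the glycine-tryptophan repeats of a GW182 protein, which in turn recruits the PAN2-PAN3 and CCR4-NOT deadenylases. Once the tail is shortened, DDX6 links CCR4-NOT to the decapping machinery, DCP2 removes the cap, and XRN1 degrades the body of the mRNA from its 5′ end. The comparison asks whether cells edited at Ago2 carried different amounts of the mRNAs for these partners.

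Total counts ran from 39628101 to 68530912 per library. Wild-type replicate 4 stood apart from the rest. Its median Spearman correlation with the other wild-type libraries was 0.864, whereas the other wild-type libraries had medians from 0.948 to 0.961 and the ΔAgo2 libraries from 0.985 to 0.986. Mitochondrial transcripts made up 0.540% of this library and between 2.38% and 4.51% of each of the other 7. The main results below are therefore given with and without it. Ago2 mRNA stood at 306.02, 269.7, 519.5 and 119 CPM (counts scaled to a common library size) in wild-type replicates 1 to 4, and at 389, 293, 408 and 316 CPM in ΔAgo2 replicates 1 to 4. The groups overlapped, so the level of the edited transcript does not check the labels. Vim, at 2217 to 4193 TPM (a level scaled for transcript length and depth), and the keratins Krt8 and Krt18 were found in every library, whereas Epcam had at most 1 count and Cdh1 at most 9. The defining lung epithelial genes Nkx2-1, Sftpb and Scgb1a1 had no count in any library and Sftpc had 1, but Hopx, the fifth gene of that list, had 7.02 to 25.4 TPM in wild-type and 10.8 to 23.2 TPM in ΔAgo2 libraries. In contrast, the 6 leukocyte markers summed to at most 0.06 TPM. The 3 endothelial markers summed to at most 0.75 TPM. The 5 fibroblast markers summed to 5.47 to 26.5 TPM in wild-type and 15.0 to 31.0 TPM in ΔAgo2 libraries, and their part in the results was not tested. Of these Pdgfra alone had 2.66 to 21.8 and 13.4 to 28.9 TPM. Pdgfrb, Dcn, Lum and Col1a1 had at most 2.78, 4.73, 0.87 and 1.47 TPM. In bulk RNA, fewer cells of a type and less RNA per cell cannot be told apart.

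All 10 genes passed the filter on low counts, with 344 to 23203 counts per gene and library. In the quasi-likelihood test of edgeR, with p-values adjusted by the Benjamini-Hochberg procedure, 0 of 10 passed the threshold of 0.05, where 0.295% of the 14228 tested genes did. At an unadjusted p under 0.05 there were 0 of 10, against 7.34% of tested genes, and DESeq2 called 0 of 10 as well. The wild-type and ΔAgo2 libraries overlapped for every one of the 10 genes, where 6.07% of tested genes had groups that did not overlap. Without wild-type replicate 4 the adjusted test again called 0 of 10 (0.777% of 14541 genes), and 2 of 10, Tnrc6c and Dcp2, had an unadjusted p under 0.05 (12.6% of genes). Both were lower in ΔAgo2 cells, as were 7.04% of genes at that p. Those same genes were the 2 of 10 whose groups no longer overlapped, against 12.1% of genes. The median log2 fold change (ΔAgo2 minus wild-type) of the 10 genes was 0.25 beside −0.11 over all tested genes, and −0.027 beside −0.037 without that library.

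**Figure D1:**
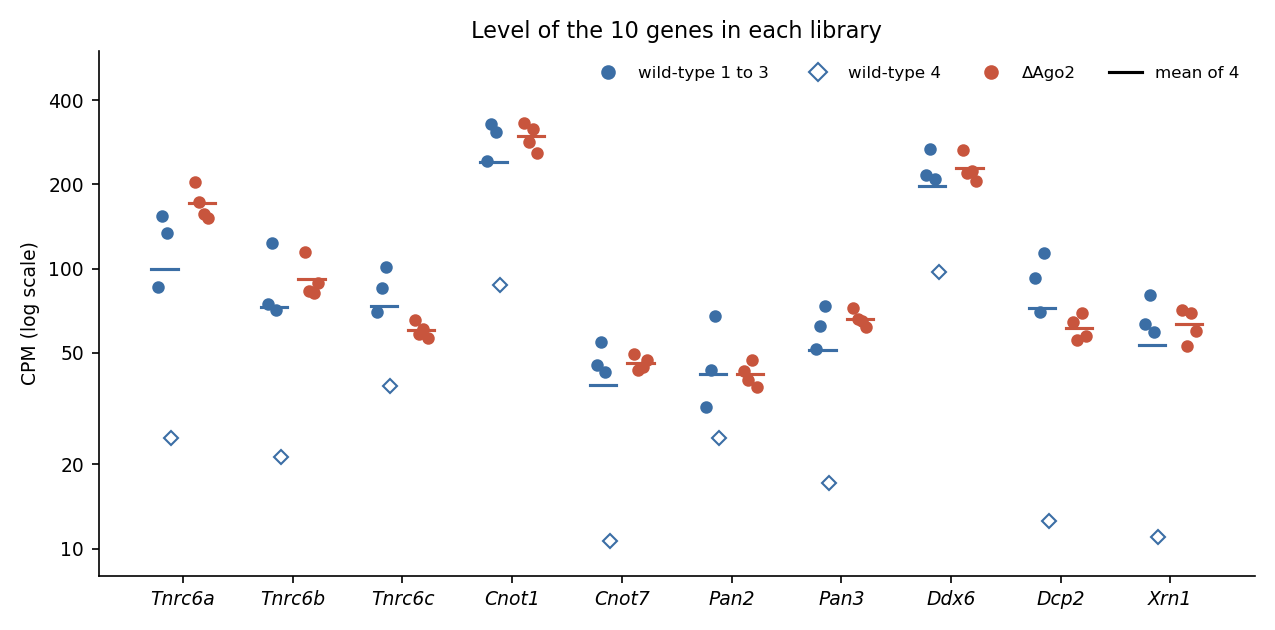
Level of each of the 10 genes in each library, in CPM on a log axis, with wild-type points in blue, ΔAgo2 points in red, wild-type replicate 4 as an open diamond and a bar at the mean of 4. The diamond is the lowest of the 8 points for all 10 genes, from 10.7 CPM for Cnot7 to 97.1 CPM for Ddx6.

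The plot of levels by library sets 1 library apart from the other 7. Wild-type replicate 4 was the lowest of the 8 libraries for 10 of 10 genes, as it was for 37.1% of all tested genes. Its level was between 13.7% (Dcp2) and 51.8% (Pan2) of the mean of the other wild-type libraries. Across the 14228 genes, the difference between this library and the other wild-type libraries followed the GC content of the longest annotated transcript, with a Spearman rho of 0.722 (across genes, which are not independent replicates). Genes under 40% GC had a median log2 difference of −2.49, and genes at 60% GC or more had 1.42. Between them, the bins that start at 40%, 45%, 50% and 55% GC had −1.55, −0.50, 0.65 and 1.27. The difference moved with transcript length as well. Genes whose longest transcript had at least 8000 bases had a median difference of −1.65 and genes under 2000 bases had 0.60. Among genes from 40% to under 50% GC these medians were −2.10 and −0.43. The 10 genes are long and mostly lower in GC than the median gene. Their longest transcripts had a median of 8286.5 bases, against 3122.5 bases over tested genes. Their median GC content was 46.3%, and 8 of 10 lay below the median of 49.6% over tested genes. Pan2 and Tnrc6c, at 51.2% and 50.9% GC, had log2 differences of −0.88 and −1.15. Cnot7 and Ddx6, at 38.2% and 43.4% GC, had −2.15 and −1.24. The part of GC content and length in the low values of that library was not tested.

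**Figure D2:**
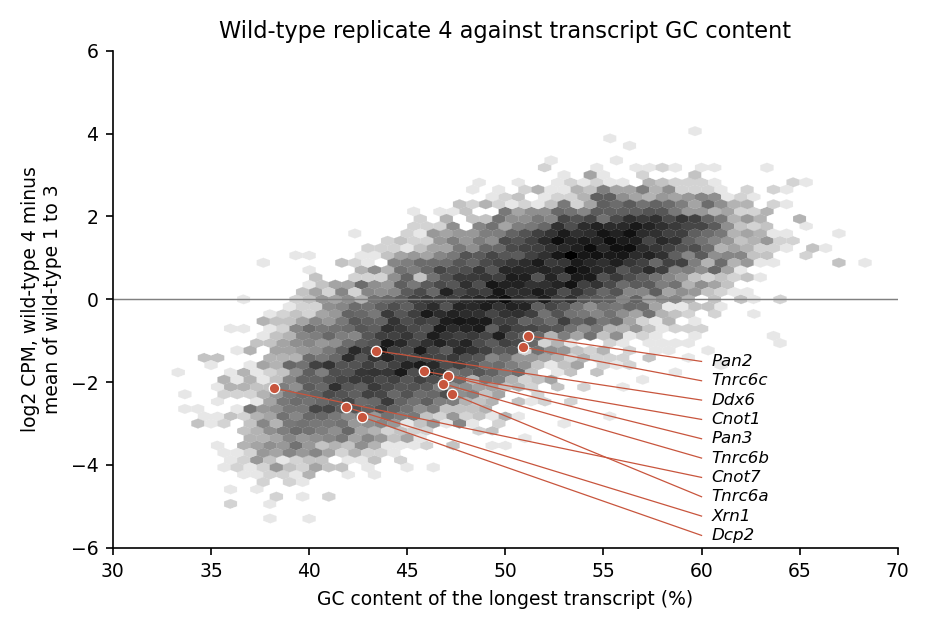
Difference in log2 CPM between wild-type replicate 4 and the mean of the other wild-type libraries (vertical axis) against the GC content of the longest transcript in percent (horizontal axis), with all tested genes as grey hexagons, darker where more genes lie, and the 10 genes as named points. All 10 points lie below 0, from −0.88 for Pan2 to −2.84 for Dcp2.

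None of the 3 GW182 genes passed the test, and their estimates did not share 1 sign. Tnrc6a (ENSMUSG00000052707), which encodes TNRC6A, lies on the plus strand of chromosome 7 from 123123885 to 123195296 (GRCm38). Its level was 85.9, 154, 134 and 24.8 CPM in wild-type replicates 1 to 4 and 203, 172, 157 and 152 CPM in ΔAgo2 replicates 1 to 4. The first 3 ΔAgo2 libraries lay above every wild-type library and the fourth lay just under wild-type replicate 2. The means were 99.7 ± 57.6 CPM and 171 ± 23.2 CPM (SD, n = 4), a log2 fold change of 0.78 with a standard error of 0.46 and a 95% interval of −0.25 to 1.81 (edgeR, adjusted p = 0.739). Its interval ran from 0.841-fold to 3.51-fold. Without wild-type replicate 4 it was 0.46, with an interval of −0.045 to 0.97 (edgeR, adjusted p = 0.439). The difference was the largest of the 10 genes over 8 libraries, but without that library those of Dcp2 and Tnrc6c were larger in size.

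Tnrc6c (ENSMUSG00000025571), the gene of TNRC6C, lies on the plus strand of chromosome 11 from 117654289 to 117763439. It stood at 69.7, 85.2, 102 and 38.0 CPM in wild-type replicates 1 to 4 and at 65.3, 58.6, 60.9 and 56.6 CPM in the ΔAgo2 libraries. Wild-type replicates 1, 2 and 3 were above all ΔAgo2 libraries and wild-type replicate 4 was below them. The log2 fold change was −0.29 with a standard error of 0.31 and a 95% interval of −0.97 to 0.40 (edgeR, adjusted p = 0.83). With that library left out the value was −0.50, with an interval of −0.87 to −0.13, an unadjusted p of 0.0144 and an adjusted p of 0.258 (edgeR).

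Tnrc6b (ENSMUSG00000047888), the gene of TNRC6B, lies on chromosome 15, as Ago2 does, from 80711313 to 80941085 on the plus strand. Its wild-type levels were 75.0, 124, 70.9 and 21.2 CPM and its ΔAgo2 levels 114, 83.1, 82.0 and 89.0 CPM. The ΔAgo2 libraries all fell inside the wild-type range. The log2 fold change was 0.34 with a standard error of 0.44 (edgeR, adjusted p = 0.854), and 0.040 without wild-type replicate 4 (edgeR, adjusted p = 0.964).

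The 3 proteins are paralogs that bind the same Argonautes, and their make-up was also taken within each library, as each gene's share of the summed TPM of the 3 genes. TPM corrects for transcript length, so these shares compare levels between genes. The share of Tnrc6a was 44.0%, 50.6%, 49.2% and 33.6% in wild-type replicates 1 to 4, and 61.7%, 62.7%, 60.1% and 59.5% in the ΔAgo2 libraries. All ΔAgo2 libraries were above all wild-type libraries. The mean share was 44.3% ± 7.66 in wild-type and 61.0% ± 1.49 in ΔAgo2 cells (SD, n = 4), a difference of 16.7 percentage points (two-sided exact permutation test, p = 0.0286, the smallest that 4 against 4 libraries can give). Adjusted over the 6 shares and ratios tested, the exact p was 0.0857, so the difference did not pass the correction. Without wild-type replicate 4 the wild-type mean was 47.9% ± 3.44 and the difference 13.1 percentage points, still with no overlap (exact permutation p = 0.0571, the smallest that 3 against 4 can give). With counts in place of TPM the difference was 14.6 percentage points, and after a correction for transcript GC content 14.9. Among single tested genes, 6.07% had groups that did not overlap, and 12.1% without wild-type replicate 4. No such percentage was computed for shares.

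The share of Tnrc6c was lower in the ΔAgo2 libraries, though this difference did not pass the correction either. It was 35.4%, 27.7%, 36.9% and 51.0% in wild-type replicates 1 to 4 and 19.6%, 21.1%, 23.1% and 21.9% in the ΔAgo2 libraries, so every ΔAgo2 library was below every wild-type library. The means were 37.7% ± 9.71 and 21.4% ± 1.45 (SD, n = 4), a difference of −16.3 percentage points (exact permutation p = 0.0286, adjusted over the 6 exact tests 0.0857), and −11.9 percentage points without wild-type replicate 4. The share of Tnrc6b was 17.9% ± 3.85 in wild-type and 17.6% ± 1.25 in ΔAgo2 cells, a difference of −0.349 percentage points (exact permutation p = 0.886). The 3 shares sum to 100% in each library, so with Tnrc6b near the same share in both groups the opposite signs of Tnrc6a and Tnrc6c are 1 result and not 2. Both were counted among the 6 tests, and their tied p-values make the adjusted p of 0.0857 smaller than if only 1 were counted. Tnrc6a TPM was 0.660 to 1.83 times Tnrc6c TPM in wild-type libraries and 2.60 to 3.15 times in ΔAgo2 libraries.

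**Figure D3:**
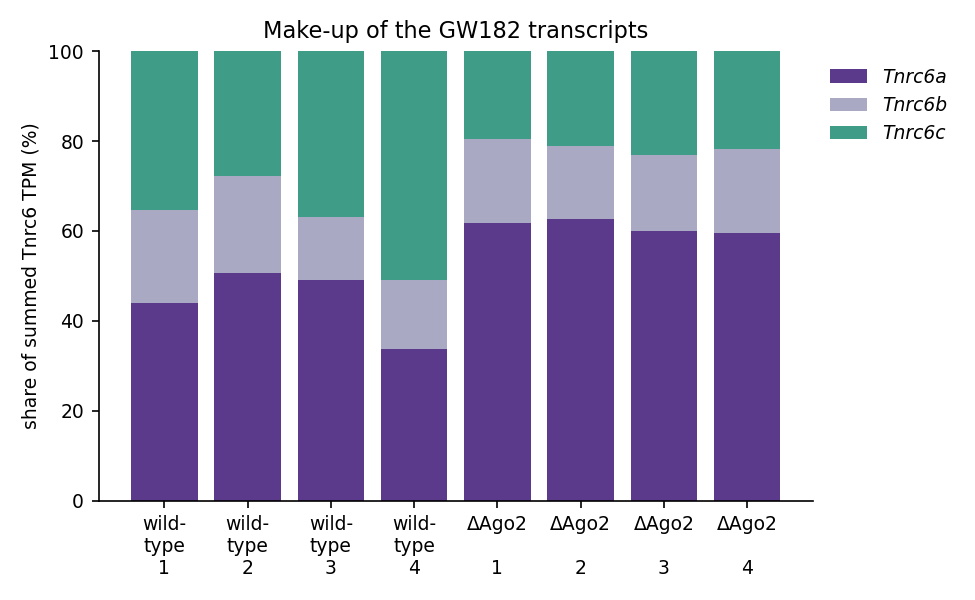
Share of Tnrc6a, Tnrc6b and Tnrc6c in their summed TPM, in percent, with 1 stacked bar per library. The Tnrc6a segment takes 33.6% to 50.6% of the wild-type bars and 59.5% to 62.7% of the ΔAgo2 bars, and the Tnrc6c segment takes 27.7% to 51.0% and 19.6% to 23.1%.

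The stacked bars show proportions and not totals. The summed TPM of the 3 genes was 47.4, 93.9, 73.5 and 12.9 in wild-type replicates 1 to 4 and 97.8, 78.6, 69.5 and 71.1 in the ΔAgo2 libraries, and the groups overlapped. Set against the summed TPM of Ago1 to Ago4, there were 0.468, 0.830, 0.444 and 0.388 GW182 transcripts per Argonaute transcript in wild-type replicates 1 to 4 and 0.631, 0.657, 0.505 and 0.625 in the ΔAgo2 libraries. On the log2 scale the difference of this ratio was 0.24 (exact permutation p = 0.371). It was 0.11 without wild-type replicate 4 and 0.48 without wild-type replicate 2 (exact permutation p = 0.0571, the smallest possible). The Argonaute sum includes mRNA of the edited gene Ago2, 67.3 of 101 TPM in wild-type replicate 1 and 104 of 155 TPM in ΔAgo2 replicate 1. The ratio therefore compares transcripts and does not measure Argonaute protein.

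The 3 GW182 genes start in unlike sequence, and the 250 bases before their RefSeq start (GRCm38.p6) are printed to show how the members of the family differ in base composition. Capitals mark CpG dinucleotides, and each sequence reads 5′ to 3′ on the plus strand, from chr7:123123635-123123884 for Tnrc6a, chr15:80711063-80711312 for the upstream start of Tnrc6b and chr11:117654039-117654288 for Tnrc6c.
Tnrc6a: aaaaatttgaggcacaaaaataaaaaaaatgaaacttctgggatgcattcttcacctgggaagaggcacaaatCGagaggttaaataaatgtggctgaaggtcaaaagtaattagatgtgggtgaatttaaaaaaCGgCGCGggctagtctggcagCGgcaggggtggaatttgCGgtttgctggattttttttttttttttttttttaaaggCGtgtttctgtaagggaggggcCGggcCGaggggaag
Tnrc6b: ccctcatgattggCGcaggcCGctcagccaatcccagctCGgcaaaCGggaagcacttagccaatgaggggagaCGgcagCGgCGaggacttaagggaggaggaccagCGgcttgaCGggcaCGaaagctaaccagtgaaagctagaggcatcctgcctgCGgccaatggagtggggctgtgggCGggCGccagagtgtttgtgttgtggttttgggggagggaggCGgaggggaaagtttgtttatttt
Tnrc6c: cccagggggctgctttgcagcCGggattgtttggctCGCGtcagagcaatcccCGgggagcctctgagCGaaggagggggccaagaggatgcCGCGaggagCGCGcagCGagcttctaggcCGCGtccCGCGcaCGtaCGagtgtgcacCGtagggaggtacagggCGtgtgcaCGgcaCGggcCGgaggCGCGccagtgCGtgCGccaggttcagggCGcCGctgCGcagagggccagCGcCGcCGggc

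The Tnrc6c window held 31 CpG at 72.4% GC, more CpG than 94.8% of the 32851 promoter windows of this length, whose median was 6. The Tnrc6b window printed had 14 CpG at 60% GC, and Tnrc6a had 9 at 42.4% GC. Tnrc6b has another start inside the gene, whose window (chr15:80798360-80798609, not printed) held 8 CpG at 48% GC and none of the motifs searched. The Tnrc6a window overlaps the long noncoding gene Gm45846, which shares 143 exonic bases with Tnrc6a on the same strand. Reads there could have been counted for either gene or for neither, since the setting is not given in the sources used here. Motifs were searched by letters on both strands. The printed Tnrc6b window held 4 matches to CCAAT and 1 to GGGCGG, which occur in 33.8% and 32.7% of all windows. The Tnrc6a and Tnrc6c windows held neither of these, nor the TATA box TATAAA, which 12.4% of windows hold. The ETS core letters CCGGAAG, present in 6.91% of windows, were absent from all 3 printed windows. A match is a string of letters and not a measured binding site.

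None of the deadenylase genes passed the test, but this does not show equal levels. The 95% intervals over 8 libraries ran from 0.688-fold to 2.21-fold for Cnot1, 0.627-fold to 2.29-fold for Cnot7 and 0.712-fold to 2.35-fold for Pan3. Cnot1 (ENSMUSG00000036550, chromosome 8 from 95719451 to 95807464, minus strand) encodes the scaffold of CCR4-NOT, onto which the catalytic subunits, DDX6 and the GW182 proteins dock. It had 241, 329, 307.6 and 87.1 CPM in wild-type replicates 1 to 4 and 332, 283, 314 and 259 CPM in the ΔAgo2 libraries. Apart from wild-type replicate 4, the groups covered much the same range. The log2 fold change was 0.30 with a standard error of 0.38 (edgeR, adjusted p = 0.850), and 0.028 without that library, with a 95% interval of −0.37 to 0.43.

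Cnot7 (ENSMUSG00000031601, chromosome 8 from 40492540 to 40515847, minus strand) encodes a catalytic subunit, CAF1, that trims the tail. Its levels were 45.3, 54.9, 42.8 and 10.7 CPM in wild-type and 49.4, 43.4, 44.5 and 47.1 CPM in ΔAgo2 libraries. The ΔAgo2 values lay within the range of wild-type replicates 1 to 3. The log2 fold change was 0.26 with a standard error of 0.42 (edgeR, adjusted p = 0.890), and −0.043 without wild-type replicate 4, with an interval of −0.39 to 0.30. Cnot8, its paralog, can take the same place in the complex. Cnot7 made up 21.7% ± 10.0 of the summed Cnot7 and Cnot8 TPM in wild-type and 26.7% ± 2.14 in ΔAgo2 cells (SD, n = 4, exact permutation p = 0.457). With wild-type replicate 4 left out, the wild-type share was 26.5% ± 3.71, and the difference fell from 4.98 to 0.220 percentage points. Exons of Cnot7 share 247 bases with Zdhhc2 on the opposite strand, and the strand setting of the counting is not given in the sources used here.

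Pan2 and Pan3 form the other deadenylase, in which PAN2 is the nuclease and PAN3 the adaptor that binds the GW182 proteins. Pan2 (ENSMUSG00000005682, chromosome 10 from 128303335 to 128321358, plus strand) had 32.0, 43.5, 67.9 and 24.8 CPM in wild-type replicates 1 to 4 and 43.0, 40.1, 47.2 and 37.7 CPM in ΔAgo2 libraries. Its group means were 42.1 ± 18.9 and 42.01 ± 4.07 CPM (SD, n = 4), and the log2 fold change of −0.0026 had a 95% interval of −0.73 to 0.72 (edgeR, adjusted p = 0.998). That interval still covers folds from 0.605 to 1.65, so the close means do not show equal levels. Pan3 (ENSMUSG00000029647, chromosome 5 from 147430161 to 147548502, plus strand) had 51.6, 62.3, 73.7 and 17.2 CPM in wild-type and 72.4, 66.0, 64.9 and 61.8 CPM in ΔAgo2 libraries. Its log2 fold change was 0.37 with a standard error of 0.39 (edgeR, adjusted p = 0.823), and 0.090 without wild-type replicate 4. The share of Pan2 in the summed TPM of the pair was 60.3% ± 8.65 in wild-type and 52.8% ± 2.34 in ΔAgo2 cells, a difference of −7.56 percentage points (exact permutation p = 0.143), and of −3.73 without wild-type replicate 4.

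Dcp2, Ddx6 and Xrn1 act after deadenylation. Dcp2, the enzyme that removes the cap (ENSMUSG00000024472, chromosome 18 from 44380502 to 44424969, plus strand), had 92.2, 69.996, 113 and 12.6 CPM in wild-type replicates 1 to 4 and 64.3, 55.5, 69.4 and 57.2 CPM in ΔAgo2 libraries. The highest ΔAgo2 library lay just under wild-type replicate 2, and wild-type replicate 4 lay far below all others. The log2 fold change was −0.23 with a standard error of 0.51 (edgeR, adjusted p = 0.926). With that library left out it was −0.57 with an interval of −0.99 to −0.15, an unadjusted p of 0.0134 and an adjusted p of 0.252 (edgeR).

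Ddx6 (ENSMUSG00000032097, chromosome 9 from 44604892 to 44640731, plus strand), a DEAD-box helicase of P-bodies, had 217, 267, 209 and 97.1 CPM in wild-type replicates 1 to 4 and 265, 219, 224 and 205 CPM in ΔAgo2 libraries. Its log2 fold change was 0.21 with a standard error of 0.32 (edgeR, adjusted p = 0.883), and −0.011 without wild-type replicate 4, with an interval of −0.39 to 0.36. Of the 10 genes it was thus the closest to 0 without that library. Xrn1 (ENSMUSG00000032410, chromosome 9 from 95954760 to 96057803, plus strand) had 63.2, 80.6, 59.2 and 11.02 CPM in wild-type replicates 1 to 4 and 71.1, 53.1, 69.5 and 59.9 CPM in ΔAgo2 libraries. Its log2 fold change was 0.24 with a standard error of 0.48 (edgeR, adjusted p = 0.914), and −0.087 without wild-type replicate 4. Its exons share 604 bases with C78334 and 184 with Gm16794, both on the opposite strand, and those of Cnot1 share 132 bases with the antisense gene 4930513N10Rik, so these counts carry the same doubt as those of Cnot7.

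**Figure D4:**
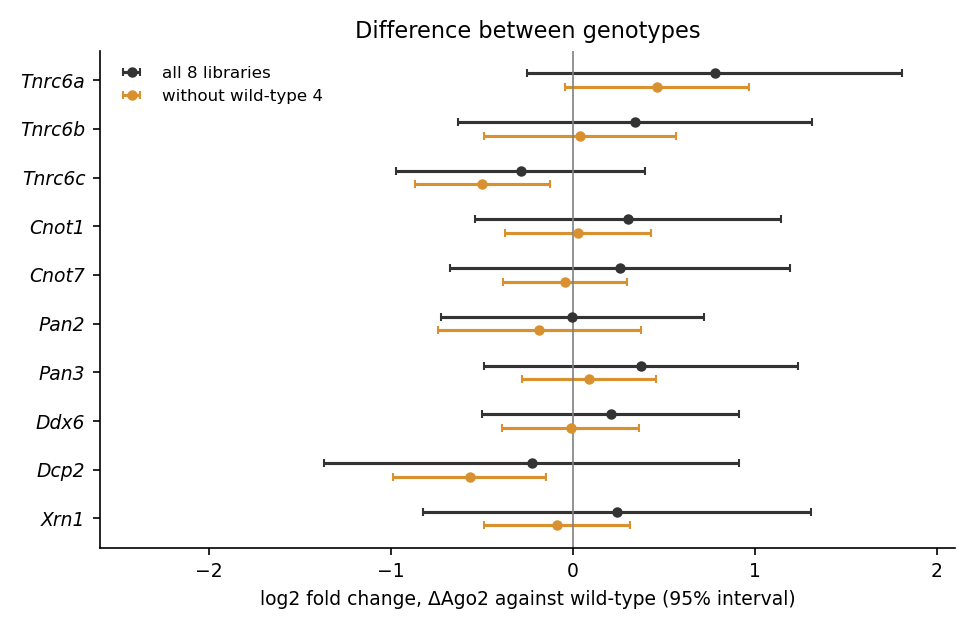
Log2 fold change (ΔAgo2 minus wild-type) of each of the 10 genes with its 95% interval, from all 8 libraries and again without wild-type replicate 4. All 10 intervals over 8 libraries cross 0, and without that library the intervals of Tnrc6c and Dcp2 lie below 0.

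The plot of differences sets both estimates side by side. Leaving out wild-type replicate 4 lowered the estimate for 10 of 10 genes, which follows from its being the lowest library for each of them. All 10 intervals were also narrower without it. A correction for transcript GC content, with all 8 libraries kept, gave log2 fold changes of 0.76 for Tnrc6a, −0.27 for Tnrc6c and −0.26 for Dcp2. It brought Ddx6 to 0.040 and Cnot7 to 0.060, and Pan2 had 0.030. Tnrc6b, Cnot1, Pan3 and Xrn1 stayed at 0.31, 0.24, 0.34 and 0.18.

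Ordered by mean TPM, Ddx6 was the most abundant of the 10 mRNAs in both groups, at 82.4 ± 42.5 TPM in wild-type and 102 ± 15.5 TPM in ΔAgo2 cells (SD, n = 4). Cnot1 came next at 47.7 ± 27.5 and 62.0 ± 8.21 TPM, and Xrn1 was last at 9.93 ± 6.45 and 12.2 ± 1.75 TPM. Between those ends the wild-type order was Dcp2, Tnrc6a, Cnot7, Tnrc6c, Pan2, Pan3 and Tnrc6b, and the ΔAgo2 order was Tnrc6a, Cnot7, Dcp2, Pan2, Tnrc6c, Pan3 and Tnrc6b. The ranges of all neighbours in the wild-type order overlapped, and without wild-type replicate 4 those of Ddx6 and Cnot1 did not. In ΔAgo2 cells the ranges of neighbours were apart for Ddx6 over Cnot1, Tnrc6a over Cnot7, and Dcp2 over Pan2.

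The wider pathway was taken as 10 lists, which hold the 10 genes and 100 further genes, of which 98 passed the filter. The list medians below include those of the 10 genes that belong to the list. Of the 98 further genes edgeR called 0 at an adjusted p under 0.05. Only 1, the deadenylase-family gene Angel1, had an unadjusted p under 0.05, against 7.34% of all tested genes. Angel1 had a log2 fold change of −1.15 with a standard error of 0.46 (edgeR, adjusted p = 0.600), and −0.98 with an unadjusted p of 0.0544 without wild-type replicate 4. Among the Argonautes, Ago1 had means of 54.6 ± 5.23 CPM (wild-type) and 70.4 ± 10.0 CPM (ΔAgo2; SD, n = 4), a log2 fold change of 0.37 (edgeR, adjusted p = 0.740). Ago3 and Ago4 had 0.11 and −0.019, and −0.25 and −0.34 without wild-type replicate 4, so Ago3 changed sign. Ajuba, a LIM protein of P-bodies, had −0.59 (edgeR, adjusted p = 0.729). In the CCR4-NOT list the median log2 fold change was 0.17 over 11 genes, and Cnot6, a catalytic subunit of the CCR4 type, had the highest value, 0.68 (edgeR, adjusted p = 0.744). With wild-type replicate 4 left out the list's median was 0.018, Cnot6 had 0.36, and Cnot3, a regulatory subunit, went from −0.36 to 0.018. Cnot8 had −0.068. Pabpc1, the main cytoplasmic poly(A)-binding protein, had −0.25 and Pabpc4 had −0.46 (edgeR, adjusted p = 0.840 and 0.711), whereas Paip1, which binds poly(A)-binding protein, had 0.33. The deadenylase gene Toe1 had 0.15. Leaving out that library gave 0.17 for Paip1 and 0.39 for Toe1.

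The 21 decapping genes, Dcp2 and Ddx6 among them, had a median log2 fold change of −0.12. The 3 exonuclease genes that work from the 5′ end had a median of 0.24, which is the value of Xrn1 itself. The 15 genes of the exosome and the SKI complex had −0.024. Leaving out wild-type replicate 4 gave medians of −0.011, 0.19 and 0.068. Among them the RNA decapping enzyme Nudt16 had −0.60 and Lsm14b 0.17 (0.27 without that library), the nuclear exonuclease Xrn2 had 0.42 (0.23 without that library), and the exosome-associated nuclease Dis3l had 0.40 (edgeR, adjusted p = 0.706, 0.864, 0.760 and 0.739). Dxo, which degrades mRNAs with faulty caps, had −0.76 and the exosome subunit Exosc5 −0.92, but both turned positive, 0.19 and 0.17, without wild-type replicate 4. The 8 genes of the translational repression list, which also holds the initiation factors Eif4e, Eif4a1, Eif4a2 and Eif4g1, had a median of −0.060. The 17 tested adaptors that bring deadenylases to particular mRNAs had −0.086. Leaving out that library gave −0.090 and −0.22. Tob1, an antiproliferative adaptor that binds CNOT7 and poly(A)-binding protein, had −0.66 (edgeR, adjusted p = 0.706), and −0.87 without wild-type replicate 4 (edgeR, adjusted p = 0.0933). Gigyf1, which represses translation together with the cap-binding protein 4EHP, had 0.47, and 0.64 without that library (edgeR, adjusted p = 0.729 and 0.177). Eif4e2, the gene of 4EHP, had −0.22, and −0.13 without it. Without wild-type replicate 4, 6 of the 98 genes had an unadjusted p under 0.05, against 12.6% of all genes. Dis3l and Gigyf1 were higher and Pabpc4, Pnrc2, Tob1 and Upf3b were lower.

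**Figure D5:**
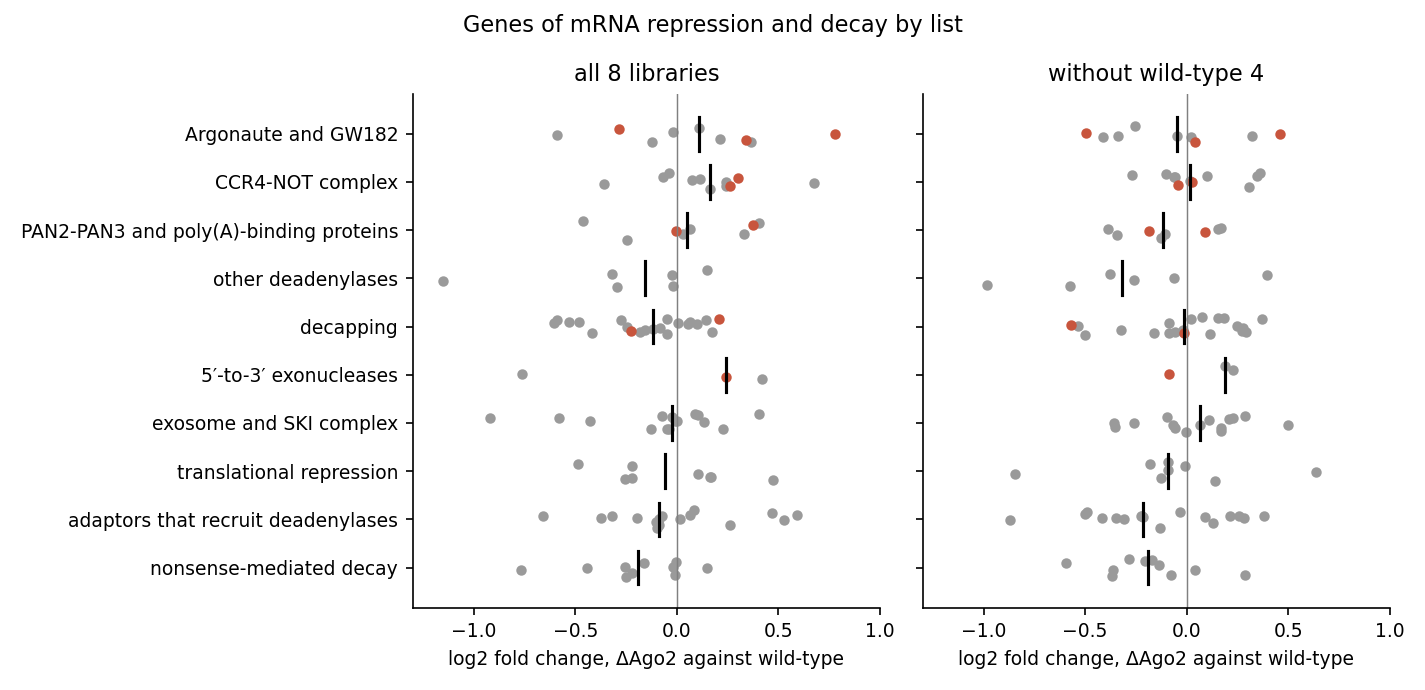
Log2 fold change (ΔAgo2 minus wild-type) of every tested gene in each pathway list, with 1 point per gene, the 10 genes in red and a bar at the list's median, from all 8 libraries on the left and without wild-type replicate 4 on the right. On the left the medians run from −0.19 for nonsense-mediated decay to 0.24 for the exonucleases that work from the 5′ end.

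The strip plot of the lists shows genes on both sides of 0 in every list. As a description, the genes whose log2 CPM followed a GW182 gene most closely over the 8 libraries were Prr14l, Ankib1 and Kdm3a for Tnrc6a (Pearson's r of 0.997, 0.993 and 0.993), Gm49359, Bcl2 and Ccp110 for Tnrc6b (0.992, 0.992 and 0.991), and Fubp1, Lin28b and Ccl25 for Tnrc6c (0.991, 0.989 and 0.980). The 8 libraries include wild-type replicate 4, without which the r of the closest gene was 0.982 for Prr14l, 0.947 for Gm49359 and 0.982 for Fubp1. These genes were picked by their r over the same libraries, so the values without that library are not a separate check. Between the 10 genes themselves, the pairwise r had a median of 0.906 over 8 libraries and of 0.259 without that library.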

How the data were processed

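The authors aligned paired-end reads from a stranded mRNA kit to rRNA and then to mm10 with STAR, per the labels and the study's methods, and deposited raw counts per gene (featureCounts) and a TPM table. The annotation release, the strand setting and the TPM length are not given in the sources used here. Gene identifiers, with the version removed, were matched to GENCODE M21, where 55394 of 55487 were found. Genes were kept with edgeR's expression filter, scaled by TMM and compared by the quasi-likelihood method of edgeR 4.0.16 (R 4.3.3), 4 wild-type against 4 ΔAgo2 libraries, with Benjamini-Hochberg adjustment over 14228 genes and a threshold of 0.05. Shares of TPM were compared with two-sided exact permutation tests (scipy 1.17.1). The GC correction used a loess smooth of each library against transcript GC content. DESeq2 1.42.0, limma 3.58.1, other scalings and filters and log2(TPM + pseudocount) were alternatives. The script was tested on simulated counts with a capped dispersion, which does not show how it performs at the spread of these libraries. The genes and lists were chosen with earlier results of these data known. Named were all 10 genes, Ago1 to Ago4, Cnot8, the gene with the smallest p in each direction of each pathway list, and the 3 genes most correlated with each GW182 gene. Pabpc1, Pnrc2, Upf3b, Smg9, Nanos3 and Wtip were named after their values were seen. No column lacked a sample. Promoter windows come from RefSeq and were found for 6 of the 10 genes.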

Additional observations from a re-analysis of the deposited data

Results flagged for a closer look

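In 3 of 32 groups of 4 libraries, 1 library lay further from its neighbours than Dixon's 95% limit allows, where chance gives about 1 in 20 groups. Cnot7 was lowest in wild-type replicate 4, with a gap of 0.849 of the group's range on the log2 CPM scale. Xrn1 was lowest in the same library, with a gap of 0.845. The share of Pan2 in the summed Pan2 and Pan3 TPM was highest in ΔAgo2 replicate 3, with a gap of 0.864, at 56.2% where the other ΔAgo2 libraries had 51.2% to 51.9%.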

How the results depend on the processing

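The count of genes past the threshold, 42 (11 of them higher), was 399 with DESeq2, 257 with limma's sample quality weights, 143 with no filter, 66 after GC correction (26 higher), 18 with the replicate block (4 higher), 6 with a filter of 1 CPM in 4 libraries, 6 at an adjusted p under 0.01 and 3 on log2(TPM + 1). With log2(TPM + 0.1) it was 46, of which 22 were higher. Leaving out 1 library gave 1 to 113 genes: 12, 78 and 113 without wild-type replicates 1, 2 and 4, 1 without ΔAgo2 replicate 1 and 7 without each of the other ΔAgo2 replicates. None of the 10 genes was called in any of the 23 alternatives, with a smallest adjusted p of 0.121 (Tnrc6a, limma with quality weights). Deviations of same-numbered libraries correlated at −0.14 to 0.38, over 0.1 for 1 number of 4, so the numbers were not taken as pairs. The log2 fold changes of Tnrc6a, Tnrc6b, Cnot1 and Pan3 stayed above 0 throughout. Without wild-type replicate 4 these log2 fold changes were lowest, at 0.46, 0.040, 0.028 and 0.090. That of Pan2 turned to 0.076 with limma-voom, 0.089 with quality weights, 0.067 with library size scaling, 0.019 with upper quartile scaling, 0.018 with no filter, 0.097 with the replicate block, 0.030 with GC correction, 0.19 with both, and 0.27 and 0.30 on log2(TPM + 1) and log2(TPM + 0.1). Dcp2 turned to 0.12 with limma-voom, 0.085 with the replicate block, and 0.29 and 0.36 on the TPM scales, and Tnrc6c to 0.0072 on log2(TPM + 0.1). The median of all genes, −0.11, was 0.033 with limma-voom and 0.15 and 0.22 on the TPM scales. That of the 10 genes, 0.25, was 0.45 with limma-voom and with the replicate block, 0.62 and 0.68 on the TPM scales, 0.12 after GC correction, 0.10 with quality weights, and −0.027 to 0.47 with 1 library left out (wild-type replicates 4 and 2). Leaving out 1 library gave −0.18 to 0.33 for Pan2, −0.57 to 0.081 for Dcp2, −0.043 to 0.47 for Cnot7, −0.011 to 0.38 for Ddx6 and −0.087 to 0.50 for Xrn1. For the shares, leaving out 1 library gave differences of 13.1 to 18.7 percentage points for Tnrc6a, −19.7 to −11.9 for Tnrc6c, −1.68 to 0.93 for Tnrc6b, 0.220 to 7.96 for Cnot7 (lowest without wild-type replicate 4, highest without 2) and −10.2 to −3.73 for Pan2. With the replicate block, an exact sign flip gave 16.7 and −16.3 percentage points for Tnrc6a and Tnrc6c, each with p = 0.125. The smallest exact permutation p is 0.0571 with 1 library left out and 0.125 with 4 pairs, so neither can pass 0.05. Without wild-type replicate 4, 6 further pathway genes rather than 1 had an unadjusted p under 0.05. The causes of these changes were not tested.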

Other observations

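Nonsense-mediated decay is a surveillance route that also ends in decapping and deadenylation. Over 8 libraries its 10 genes had the lowest median of the pathway lists, −0.19 on the log2 scale, beside −0.11 over all tested genes. With wild-type replicate 4 left out its median was again −0.19, but the other deadenylases, at −0.32, and the adaptors, at −0.22, lay lower. Of the 10 genes of nonsense-mediated decay 0 passed the adjusted test in edgeR, against 0.295% of all tested genes. At an unadjusted p under 0.05 there were 0 as well, against 7.34% of all tested genes. Smg5, which brings decay enzymes to phosphorylated UPF1, was lowest at −0.77 (edgeR, adjusted p = 0.734), and Upf3a was highest at 0.15. Leaving out wild-type replicate 4 gave −0.21 and 0.040. Upf3b was then lowest at −0.59 (edgeR, unadjusted p = 0.0131, adjusted p = 0.251) and Smg9 highest at 0.29. With that library left out, 12.6% of all genes had an unadjusted p under 0.05.

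Among the deadenylase adaptors, Samd4, which encodes the RNA-binding protein SMAUG1, had a log2 fold change of 0.59 (edgeR, adjusted p = 0.729), and 0.38 without wild-type replicate 4, and Tob1 lay at the other end of the list. Nanos3 and Wtip, with at most 4 and 3 counts in a library, were not tested.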
